A study of Homo sapiens with 6 samples.

Results

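The genes described here are 10 components of the Notch pathway, chosen by symbol: the receptors NOTCH1, NOTCH2, NOTCH3 and NOTCH4, the ligands JAG1, JAG2 and DLL1, and the target transcription factors HES1, HEY1 and HEYL. They are 10 of the 67026 genes counted, and 8 of them had enough counts to be tested between groups. The tumours were xenografts grown from PC-3, a human line derived from metastatic prostate cancer, under the skin of male NSG mice (NOD.Cg-Prkdcscid Il2rgtm1Wjl/SzJ), which lack lymphocytes but keep their own vessels, fibroblasts and myeloid cells. The mice were 4 to 5 weeks old, received PC-3 cells in PBS and Matrigel, and were followed for 4 weeks. Before injection both groups were transduced with lentivirus and selected with puromycin, the control group with a hairpin against GFP (shGFP, labelled KD control) and the other with a hairpin against versican (shVCAN, labelled KD VCAN). The labels number 3 xenografts in each group, name 1 hairpin per group and do not say that each xenograft came from its own mouse, so p-values measure the spread between these libraries. The question addressed is how Notch transcripts stood when versican, a chondroitin sulfate proteoglycan of the matrix, was knocked down.

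Notch receptors and their Jagged and Delta-like ligands are membrane proteins, so the signal passes between touching cells. Ligand binding lets an ADAM protease and then gamma-secretase cut the receptor, and the freed intracellular part enters the nucleus, joins the DNA-binding protein RBPJ and a Mastermind-like coactivator, and switches on HES and HEY genes, which encode repressors. The sugars that Fringe enzymes add to a receptor change which ligand it answers to. In vessels NOTCH4 and DLL4 are known from endothelial cells, and NOTCH3 and HEYL from pericytes and smooth muscle.

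The promoter of HES1 is shown because HES1 is the textbook target of the pathway, and that of NOTCH3 because NOTCH3 had the largest rise of the members. Both are the 250 bases before the RefSeq transcription start, 5′ to 3′ on the gene's strand (GRCh38.p14), at chr3:194135898-194136147 on the plus strand for HES1 and chr19:15200996-15201245 on the minus strand for NOTCH3. Capitals mark TGGGAA, the core of the RBPJ binding sequence, and CACGAG, 1 form of the N-box bound by HES repressors.
HES1: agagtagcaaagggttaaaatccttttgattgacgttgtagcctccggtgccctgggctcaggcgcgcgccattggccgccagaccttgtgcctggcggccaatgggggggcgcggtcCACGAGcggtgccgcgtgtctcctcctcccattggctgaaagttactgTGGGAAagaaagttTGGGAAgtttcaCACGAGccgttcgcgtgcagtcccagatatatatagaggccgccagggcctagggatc
NOTCH3: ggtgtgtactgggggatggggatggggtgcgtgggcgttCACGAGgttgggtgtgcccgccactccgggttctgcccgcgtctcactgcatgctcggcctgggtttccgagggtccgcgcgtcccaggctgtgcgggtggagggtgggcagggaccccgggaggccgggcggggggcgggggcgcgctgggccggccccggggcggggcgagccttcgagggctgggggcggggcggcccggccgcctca

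The HES1 window held 2 copies of TGGGAA, starting 84 and 70 bases before the start, and 2 copies of CACGAG, at 132 and 58 bases. The NOTCH3 window held 1 CACGAG, at 211 bases, and no TGGGAA. RefSeq windows were found for 8 members (all but DLL1 and HEY1). On either strand TGGGAA (or TTCCCA) was present in 2 of the 8, HES1 and HEYL, and in 20.8% of all 35116 promoter windows of that length. CACGAG (or CTCGTG) was present in 2 of the 8, HES1 and NOTCH3, and in 5.58% of all windows. The E-box CACGTG was in none of the 8 and in 6.34% of all windows. These matches are letters in a window and were not tested for binding.

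Libraries held 11253058 to 13327617 counts. VCAN (ENSG00000038427.16), the targeted gene, fell from 10.6 ± 0.809 to 3.66 ± 1.19 CPM (read counts scaled to a common library size; mean ± SD, n = 3 per group), with no overlap between groups (exact two-sided permutation p = 0.1, the smallest that 3 against 3 allows; adjusted p = 4.59e-07 in edgeR's quasi-likelihood test). PC-3 cells do not make the androgen-driven KLK3 and KLK2, and both had 0 counts in all 6 tumours. All 7 listed genes expected in PC-3, among them KRT8, KRT18, EPCAM and VIM, were detected, with a summed level of 3489 to 3733 CPM in shGFP and 3263 to 3365 CPM in shVCAN. VIM was the largest part of that sum (1871 ± 53.2 and 1824 ± 25.9 CPM). At an adjusted p under 0.05 in edgeR's test, KRT8, KRT18, EPCAM and ETS1 were lower in shVCAN and CD44 was higher. VIM and KRT19 were not called, and 40.3% of all tested genes were called. The 13 mitochondrial messenger RNAs took 14.9% ± 1.43 of counts in shGFP and 6.82% ± 0.701 in shVCAN, and the part of that difference in the Notch values was not tested.

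Among the 8 tested members, 4 rose (NOTCH3, JAG1, JAG2 and HEY1), 2 fell (NOTCH1 and NOTCH2) and 2 were not called (HES1 and HEYL), at an adjusted p under 0.05 in edgeR's quasi-likelihood test. Across all 16254 tested genes 40.3% were called, 19.2% higher and 21.1% lower in shVCAN. Groups did not overlap in 4 of the 8 members, NOTCH2, NOTCH3, JAG1 and HEY1, against 48.7% of all tested genes, a share close to the background. The median log2 fold change (shVCAN over shGFP) was 0.081 over the 8 members and 0.0014 over all tested genes. The fitted ratios of the 8 ran from 0.685 for NOTCH2 to 1.5 for NOTCH3. The plot of members by tumour shows these values.

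**Figure D1:**
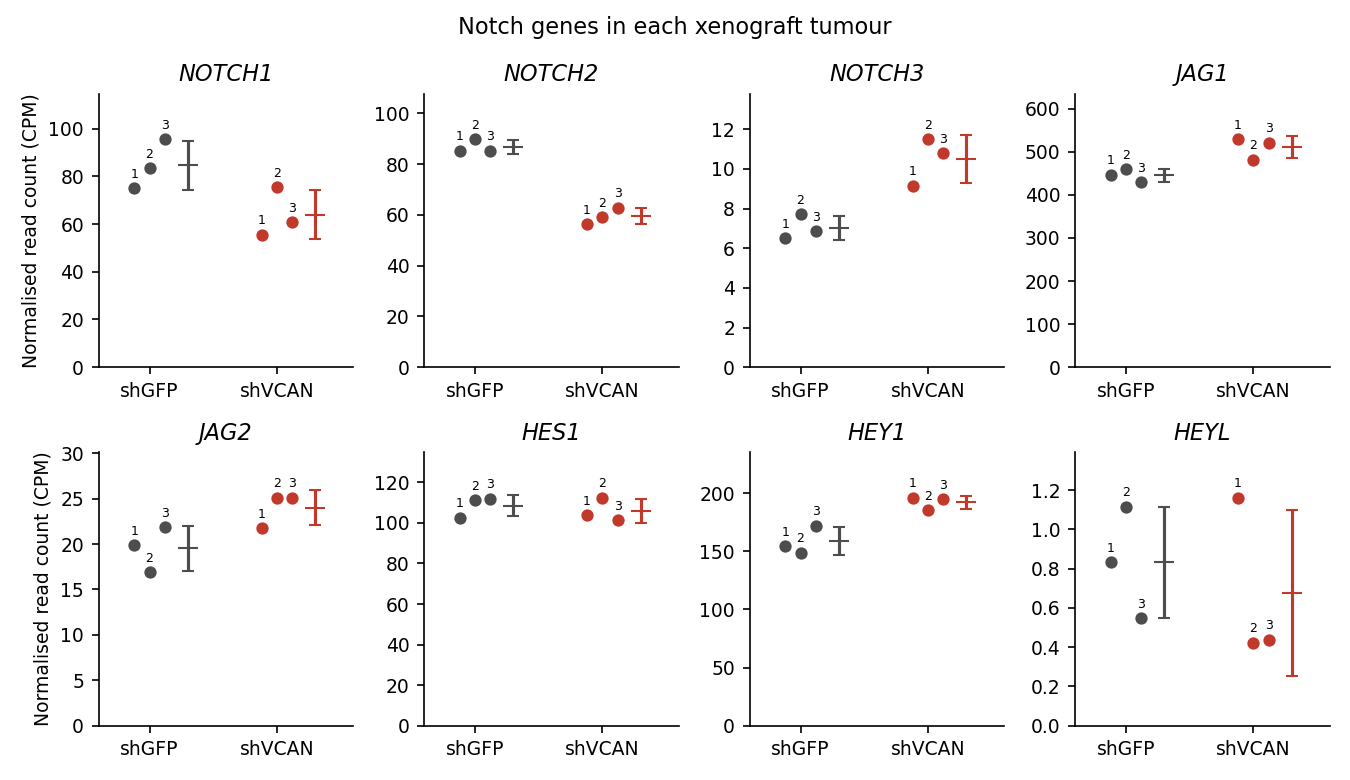
Normalised read count (CPM, linear axis from 0) of the 8 tested Notch genes in each tumour, with tumour numbers beside the points and mean ± SD (n = 3) to their right. NOTCH2 is lower, and NOTCH3, JAG1 and HEY1 are higher, in every shVCAN tumour than in any shGFP tumour.

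The receptors moved in opposite directions. NOTCH2 (ENSG00000134250.20, chromosome 1, 119911553 to 120069626, GRCh38) had 85.4, 89.8 and 85.2 CPM in shGFP tumours 1, 2 and 3 and 56.4, 59.1 and 62.8 CPM in shVCAN tumours 1, 2 and 3. The 2 groups lay far apart for NOTCH2, with little spread inside either. Its log2 fold change was −0.55 (SE 0.0682, 95% interval −0.69 to −0.41, adjusted p = 1.22e-07), the smallest p of the members. NOTCH2 shares sequence with the human NOTCH2NL genes, whose reads could be split with it. The rows for NOTCH2NLA, NOTCH2NLB, NOTCH2NLC and NOTCH2NLR held at most 16 counts in a tumour, beside 777 or more for NOTCH2. How reads matching more than 1 gene were counted is not given, so these rows cannot show how many reads were shared.

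NOTCH1 (ENSG00000148400.12, chromosome 9, 136494433 to 136545786) had 75.1, 83.3 and 95.6 CPM in the shGFP tumours and 55.5, 75.4 and 60.9 CPM in the shVCAN tumours. The groups touched for NOTCH1, since shVCAN tumour 2 stood just above shGFP tumour 1. The log2 fold change was −0.40 (SE 0.0893, adjusted p = 0.000493), a call held without any 1 tumour (log2 −0.54 to −0.30). Exonic length and GC content moved with this result. Long, GC-rich transcripts such as NOTCH1 (10377 exonic bases, 62.9% GC) were on average lower in shVCAN, and for NOTCH1 that trend amounted to −0.24 on the log2 scale. With the trend removed, the log2 fold change of NOTCH1 was −0.17 and no longer called (adjusted p = 0.0601), and that of NOTCH2 was −0.32 and still called (adjusted p = 7.08e-05).

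NOTCH3 (ENSG00000074181.9, chromosome 19, 15159038 to 15200981) was scarce, with 78, 83 and 75 counts in the shGFP tumours and 126, 163 and 148 in the shVCAN tumours. As normalised levels these were 6.50, 7.71 and 6.85 CPM against 9.15, 11.5 and 10.8 CPM, so every shVCAN tumour lay above every shGFP tumour. The log2 fold change was 0.58 (SE 0.167, 95% interval 0.24 to 0.92, adjusted p = 0.00588), higher than that of 89.5% of tested genes. NOTCH3 is also long and GC-rich (63.1% GC), and with the length and GC trend removed its log2 fold change was 0.81 (adjusted p = 8.44e-05).

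NOTCH4 (ENSG00000204301.6, chromosome 6, 32194843 to 32224067), known from endothelium, was listed at 0 counts in all 6 tumours, as was the ligand DLL1 (ENSG00000198719.9, chromosome 6, 170282206 to 170306565). A 0 in this table is not evidence of absence. The ribosomal protein genes RPL7A and RPS25, which every cell uses, were also listed at 0 throughout, and so was the Mastermind-like coactivator MAML1.

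Per kilobase of exon, NOTCH1 was the highest receptor in shGFP tumours (8.16 ± 0.995 CPM per kilobase), followed by NOTCH2 (5.16 ± 0.157) and NOTCH3 (0.747 ± 0.0666). In shVCAN tumours the order was the same, with 6.16 ± 0.992, 3.54 ± 0.19 and 1.12 ± 0.129 CPM per kilobase, and in both groups the neighbours in that order differed by more than their spread. The order of NOTCH1 and NOTCH2 depends on the exonic lengths used (10377 and 16807 bases). Not divided by length, they had 84.7 ± 10.3 and 86.8 ± 2.63 CPM in shGFP. In shVCAN they had 63.9 ± 10.3 and 59.4 ± 3.19 CPM. As a share of the 3 receptors' counts per kilobase, a measure that does not depend on how libraries are scaled, NOTCH3 took 5.31%, 5.78% and 4.86% in shGFP and 10.1%, 10.2% and 10.7% in shVCAN. This is 5.0 percentage points more on average, with no overlap between groups (exact permutation p = 0.1, the smallest possible). The share of NOTCH1 was 57.9% ± 3.08 against 56.8% ± 3.24 (exact permutation p = 0.5), and that of NOTCH2 was 36.8% ± 2.73 against 32.9% ± 3.12 (exact permutation p = 0.3), and both overlapped between groups. Leaving out shGFP tumour 3 or shVCAN tumour 3 turned the sign of the NOTCH1 difference.

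**Figure D2:**
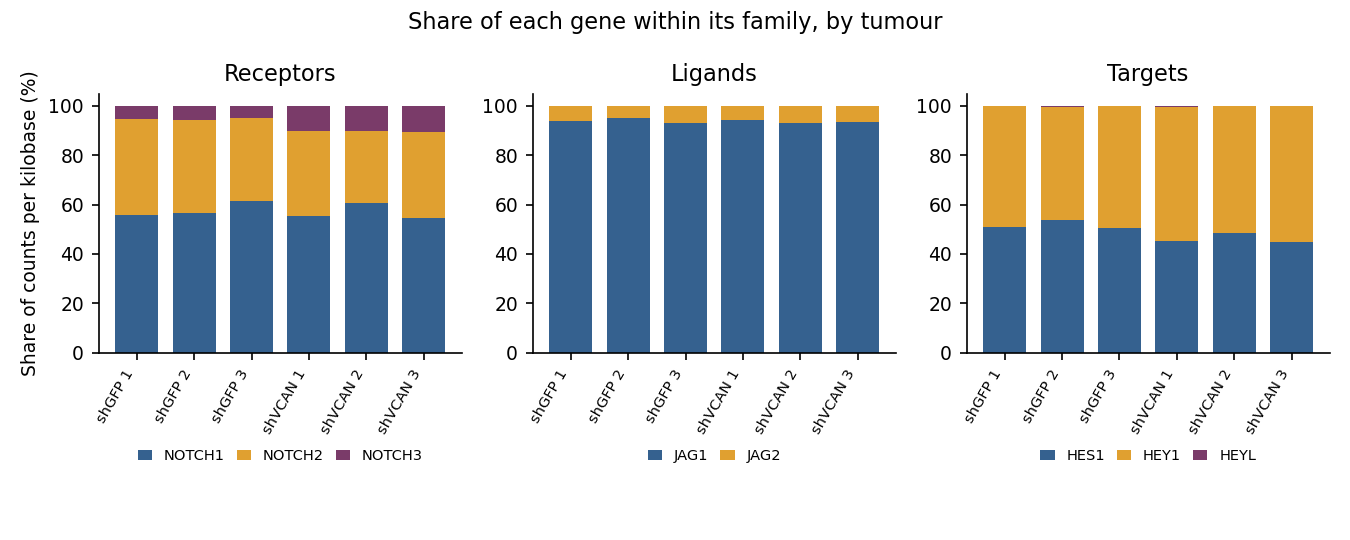
Share (%) of each gene in the summed counts per kilobase of its family, one bar per tumour, for the tested receptors, the JAG ligands and the 3 target factors. The NOTCH3 segment takes 4.86% to 5.78% in shGFP and 10.1% to 10.7% in shVCAN, and the HEY1 segment is larger in every shVCAN tumour.

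Both Jagged ligands rose slightly, and JAG1 was by far the more abundant. JAG1 (ENSG00000101384.12, chromosome 20, 10637684 to 10673999) had 447.3, 459.6 and 429.9 CPM in shGFP and 529.5, 481.7 and 520.9 CPM in shVCAN. The groups did not overlap, although shVCAN tumour 2 came close to the control range. The log2 fold change was 0.20 (SE 0.0478, 95% interval 0.10 to 0.29, adjusted p = 0.00134). Its level per kilobase, over all 6 tumours, was above that of 95.3% of tested genes.

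JAG2 (ENSG00000184916.9, chromosome 14, 105140981 to 105168824) had 19.9, 16.9 and 21.8 CPM in shGFP and 21.8, 25.1 and 25.1 CPM in shVCAN. Here shGFP tumour 3 and shVCAN tumour 1 met, so the groups overlapped. The log2 fold change was 0.30 (SE 0.115, 95% interval 0.06 to 0.53, adjusted p = 0.0406), and the call rested on single libraries. It was lost without shGFP tumour 1 (adjusted p = 0.0651), shGFP tumour 2 (0.19), shVCAN tumour 2 (0.0989) or shVCAN tumour 3 (0.127), and by the Wald test of DESeq2 (0.0645). Of the bases of JAG2 exons, 7.33% are shared with an annotated RNA gene (AL512356.1) on the same strand, so reads there could be split. JAG1 took 94.0% ± 0.90 of the ligands' counts per kilobase in shGFP and 93.6% ± 0.712 in shVCAN, a difference within the spread of tumours (exact permutation p = 0.6).

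The target factors did not move together. HEY1 (ENSG00000164683.18, chromosome 8, 79764010 to 79767863), a repressor of the hairy-related family, had 154.6, 149.0 and 172.1 CPM in shGFP and 196.3, 185.4 and 194.8 CPM in shVCAN. All shVCAN tumours stood above all shGFP tumours, and the log2 fold change was 0.28 (SE 0.0579, 95% interval 0.16 to 0.40, adjusted p = 0.000263). HES1 (ENSG00000114315.4, chromosome 3, 194136145 to 194138732), whose promoter carries the RBPJ core letters shown above, had 102.6, 111.1 and 112.0 CPM in shGFP and 103.7, 112.5 and 101.4 CPM in shVCAN. The groups overlapped completely for HES1. Its log2 fold change was −0.04 (SE 0.0629, 95% interval −0.16 to 0.09, adjusted p = 0.694), an interval that leaves out a change of 2-fold in either direction.

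The direction of HES1 depended on the processing. It was 0.0039 with upper quartile factors and 0.13 with library size only, neither called, and −0.18 with the length and GC trend removed, which was called lower (adjusted p = 0.00975). HES1 is a short transcript (2062 exonic bases), and for transcripts like it the trend was upward in shVCAN, by 0.15 on the log2 scale. HEYL (ENSG00000163909.8, chromosome 1, 39624153 to 39639945) had 6 to 12 counts in shGFP tumours and 6, 6 and 16 in shVCAN tumours. At that depth its log2 fold change of −0.30 had a 95% interval from −1.41 to 0.81, so a fall of 2-fold lay within it and no difference was detectable.

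Per kilobase the levels of HES1 and HEY1 were alike in shGFP tumours, 52.6 ± 2.52 and 49.1 ± 3.72 CPM per kilobase, and differed by less than their spread. In shVCAN tumours HEY1 stood at 59.4 ± 1.83 and HES1 at 51.3 ± 2.83 CPM per kilobase. HEYL was at 0.227 ± 0.0774 and 0.184 ± 0.115 CPM per kilobase in shGFP and shVCAN. The share of HEY1 in the 3 factors' counts per kilobase was 48.9%, 46.0% and 49.4% in shGFP and 54.5%, 51.2% and 55.0% in shVCAN, with no overlap (exact permutation p = 0.1, the smallest possible).

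**Figure D3:**
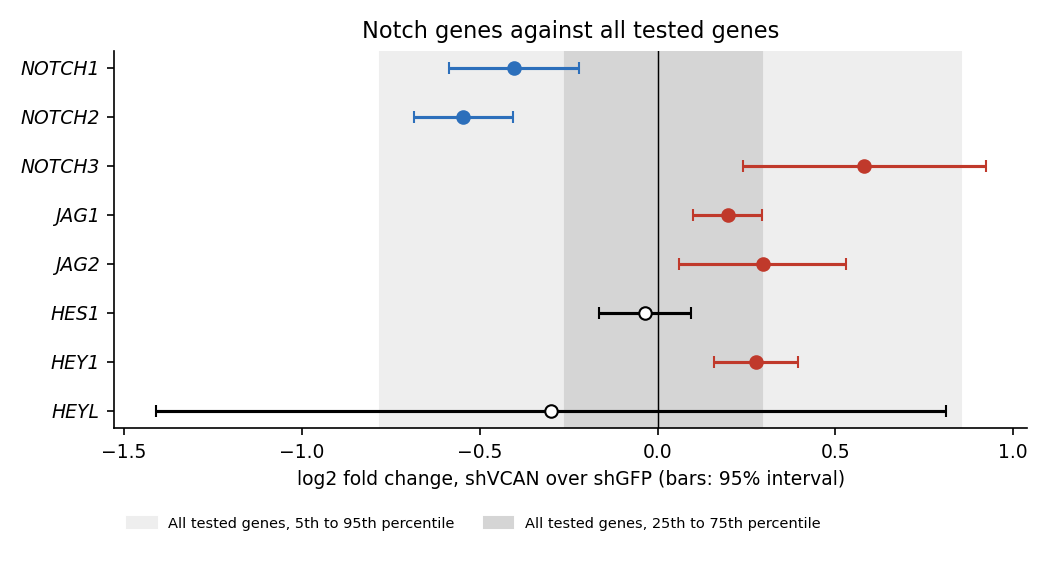
Log2 fold change (shVCAN over shGFP) of the 8 tested members with 95% intervals. Red marks genes called higher, blue called lower and open symbols not called, and the grey bands hold the central part of all tested genes: HES1, JAG1 and HEY1 lie inside the 25th to 75th percentile, and no member lies outside the 5th to 95th.

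**Figure D4:**
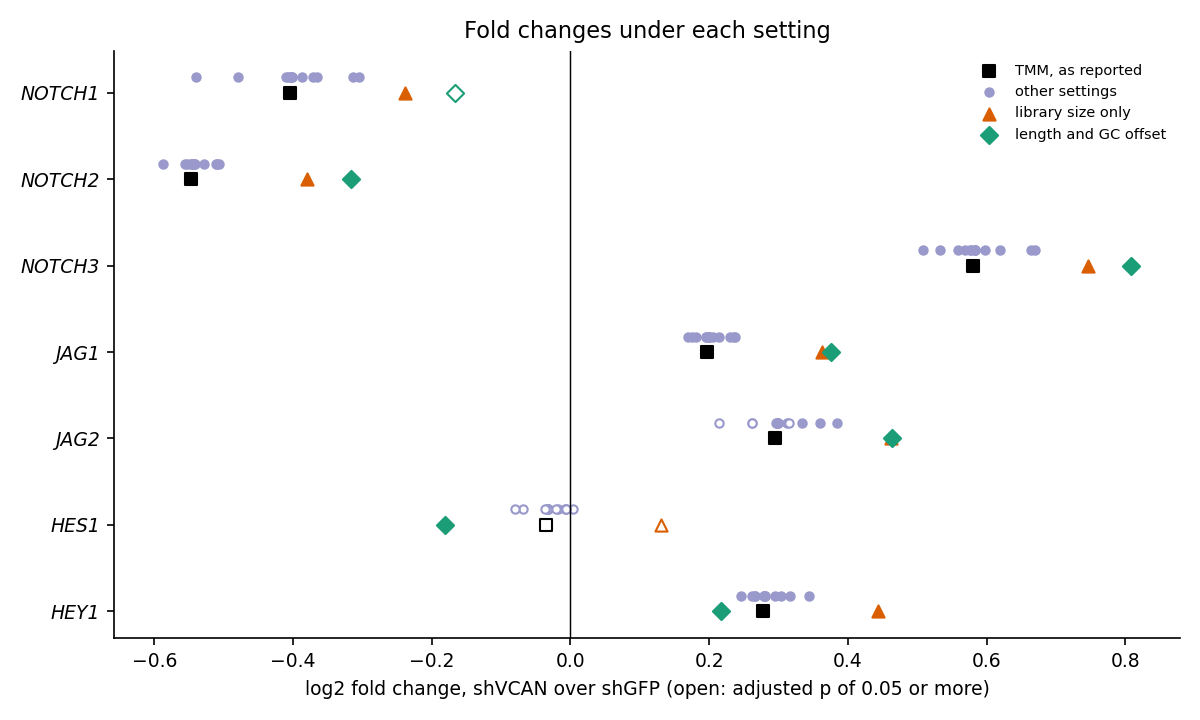
Log2 fold change of 7 members under each scaling, filter, test and left-out tumour (the scarce HEYL is left out). NOTCH1, NOTCH2, NOTCH3, JAG1, JAG2 and HEY1 keep their direction in all settings shown, while HES1 lies on either side of 0.

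The other genes of the pathway, listed by role, were mostly lower or not called. Of 75 tested genes out of 80 listed, 31 fell (41.3%, against 21.1% of all tested genes), 10 rose (13.3%, against 19.2%) and 34 were not called, with a median log2 fold change of −0.15. With libraries scaled by size alone, which raises the median of all tested genes to 0.168, 19 fell and 17 rose, beside 1890 that fell and 5228 that rose over all 16254 tested genes. The plot of pathway genes by role shows each value.

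**Figure D5:**
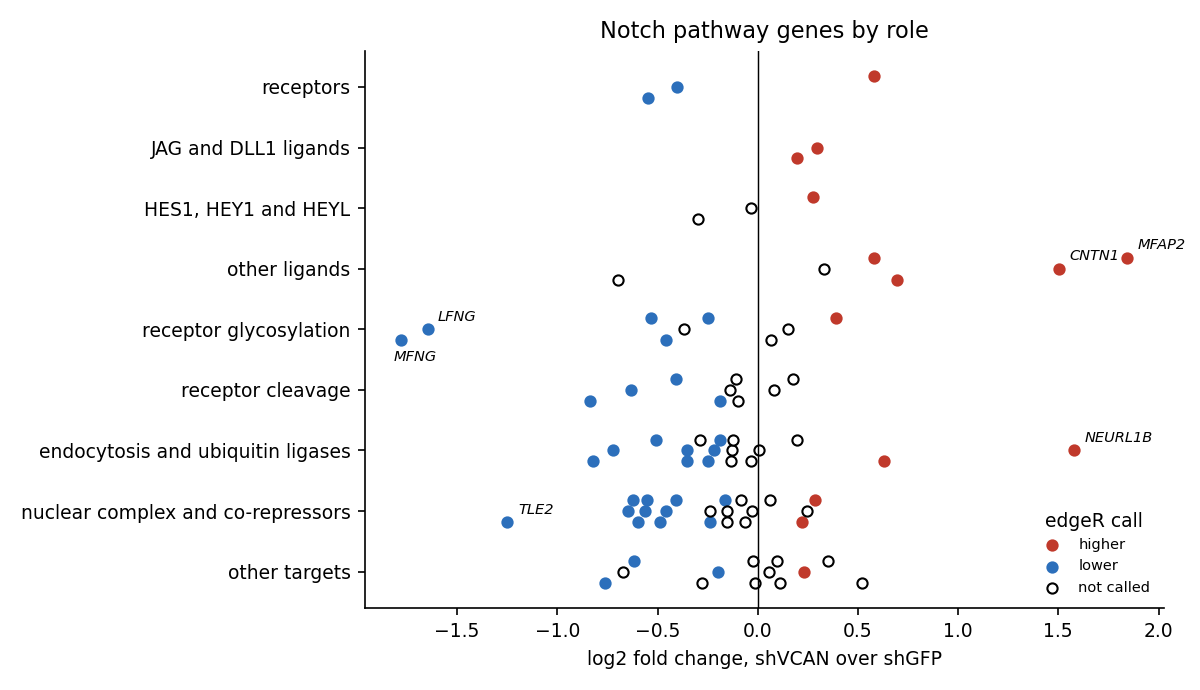
Log2 fold change (shVCAN over shGFP) of every tested Notch pathway gene, 1 point per gene, by role. Red points were called higher, blue called lower and open points not called in edgeR; gene names mark the points farthest from 0, with LFNG, MFNG and TLE2 lower and CNTN1, MFAP2 and NEURL1B higher.

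Of 6 tested further ligands, 4 rose (19.2% of all tested genes did) and 2 were not called, with a median log2 fold change of 0.64. DLL3, a Delta-like protein known to inhibit Notch within the cell, rose from 8.13 ± 0.697 to 12.2 ± 0.395 CPM (log2 0.58, adjusted p = 0.00267). Larger rises were seen in a pair of proteins reported as non-canonical Notch ligands: the adhesion molecule CNTN1 rose from 16.2 ± 1.74 to 46.2 ± 4.72 CPM and the microfibril protein MFAP2 from 3.20 ± 0.132 to 11.5 ± 0.56 CPM. DLL4, the endothelial ligand, which like RFNG is named outside the rule after its values were seen, had 4.50, 4.09 and 2.74 CPM in shGFP and 1.38, 2.96 and 2.63 CPM in shVCAN, and was not called (adjusted p = 0.0682).

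Of 9 genes for receptor glycosylation, 5 fell, 1 rose and 3 were not called (66.7% called, against 40.3% of all tested genes), with a median log2 fold change of −0.37. All 3 Fringe enzymes, which lengthen O-fucose on Notch repeats, were among those that fell. LFNG had 33.3, 32.6 and 34.6 CPM in shGFP and 11.1, 9.95 and 11.02 CPM in shVCAN, a log2 fold change of −1.65 (SE 0.112, adjusted p = 4.82e-13). MFNG had 9.16, 7.43 and 9.86 CPM in shGFP and 1.81, 3.10 and 2.77 CPM in shVCAN, a log2 fold change of −1.78 (SE 0.228, adjusted p = 1.96e-07). In both, the shVCAN tumours lay far below every control tumour, and the log2 fold changes stood at percentiles 0.843 and 0.714 of all tested genes. RFNG fell less, from 76.1 ± 1.96 to 64.2 ± 3.74 CPM, and 21.6% of its exonic bases are shared with GPS1 on the other strand. The xylosyltransferase GXYLT1 fell from 26.2 ± 1.85 to 18.1 ± 0.669 CPM, whereas XXYLT1, which adds the next xylose, rose from 40.9 ± 1.66 to 53.7 ± 1.99 CPM.

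Of 9 genes for receptor cleavage, 4 fell and 5 were not called, with a median log2 fold change of −0.14. All calls were falls, so 44.4% of this list was called lower, against 21.1% of all tested genes. In either direction, 40.3% of all tested genes were called. FURIN, the protease that cuts Notch during its passage to the cell surface, fell from 126.4 ± 6.27 to 70.7 ± 2.82 CPM. The gamma-secretase subunits NCSTN and APH1B fell, NCSTN from 89.8 ± 3.33 to 67.7 ± 0.133 CPM and APH1B from 15.5 ± 1.53 to 10.01 ± 1.53 CPM. ADAM10, the protease that cuts ligand-bound receptor, fell from 82.6 ± 0.978 to 72.6 ± 3.46 CPM (log2 −0.19, adjusted p = 0.0242). The ADAM10 call was lost without any 1 tumour other than shVCAN tumour 3 (adjusted p = 0.0537 to 0.0958), and its log2 fold change was −0.02 with library size only.

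Of 17 endocytosis and ubiquitin ligase genes, 8 fell, 2 rose and 7 were not called (58.8% called, against 40.3% of all tested genes), with a median log2 fold change of −0.19. The ligases WWP2 and CBL fell, from 38.2 ± 1.80 to 23.2 ± 1.26 CPM and from 48.7 ± 1.41 to 34.3 ± 1.94 CPM. NEURL1B, a Neuralized ligase that acts on ligands, rose from 1.68 ± 0.409 to 5.06 ± 0.639 CPM, and the Deltex gene DTX1, itself a known Notch target, rose from 10.8 ± 2.37 to 16.8 ± 0.579 CPM.

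Of 21 tested genes of the nuclear complex and its co-repressors, 11 fell, 2 rose and 8 were not called (61.9% called, against 40.3% of all tested genes), with a median log2 fold change of −0.24. RBPJ, the DNA-binding protein of the pathway, had 58.3, 50.5 and 53.1 CPM in shGFP and 47.1, 41.4 and 57.3 CPM in shVCAN and was not called (adjusted p = 0.194). Without shVCAN tumour 3, the highest of its group, RBPJ was called lower (log2 −0.29, adjusted p = 0.0148). The groucho co-repressor TLE2 fell from 58.7 ± 1.23 to 24.7 ± 2.26 CPM, TLE3 from 80.0 ± 7.39 to 54.0 ± 5.91 CPM, the RBPJ co-repressor SPEN from 98.0 ± 2.04 to 62.5 ± 9.94 CPM and the acetyltransferase CREBBP from 125.8 ± 6.23 to 81.8 ± 4.31 CPM. TLE2 had the lowest log2 fold change of these 4, −1.25 (SE 0.0862, adjusted p = 6.59e-13). All 4 stayed called lower in the 16 other settings, but the size of the fall depended on the processing. The log2 fold change was −0.62 for CREBBP, −0.65 for SPEN and −0.56 for TLE3 in the main test. With library size only it was −0.45, −0.48 and −0.40 for these 3 in turn, and −1.08 for TLE2, the smallest fall of TLE2. The smallest falls of the other 3 were −0.35, −0.42 and −0.31, in a setting other than library size only.

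Of 13 tested further targets, 3 fell, 1 rose and 9 were not called (30.8% called, against 40.3% of all tested genes), with a median log2 fold change of −0.015. CCND1, which encodes cyclin D1, fell from 364.1 ± 7.72 to 214.7 ± 3.33 CPM, and the ligand gene EFNB2 from 53.4 ± 2.49 to 34.8 ± 0.155 CPM (26.2% of its exonic bases overlap a gene on the other strand), while the transcription factor SOX9 rose from 339.7 ± 3.44 to 398.8 ± 13.6 CPM. MYC fell from 176.5 ± 15.0 to 154.0 ± 5.56 CPM, a call lost without shGFP tumour 2 (adjusted p = 0.133) or shVCAN tumour 1 (adjusted p = 0.0707) and with library size only (log2 −0.031). These 4 genes answer to many other pathways. NRARP, a feedback inhibitor used as a readout of Notch activity and named here after its values were seen, had 11.9, 11.2 and 17.9 CPM in shGFP and 13.1, 17.2 and 13.5 CPM in shVCAN. The groups overlapped for NRARP, with a log2 fold change of 0.10 (95% interval −0.22 to 0.42, adjusted p = 0.666).

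Human genes listed as markers of vessel and stromal cells also differed between groups. Whether PC-3 cells themselves or mouse cells gave these counts was not tested. In bulk tumours, fewer cells of a type and less RNA per cell also cannot be told apart. For comparison, 40.3% of all tested genes were called, 19.2% higher and 21.1% lower in shVCAN. The called share of tested markers was above 40.3% in the endothelial and fibroblast lists. It was below 40.3% in the pericyte and smooth muscle list and in the myeloid list. Of 9 tested endothelial markers out of 13 listed, 6 fell and 2 rose, and their summed level was 252.0 to 266.3 CPM in shGFP and 199.7 to 205.1 CPM in shVCAN. The defining endothelial gene CDH5 had 73, 68 and 57 counts in shGFP and 13, 16 and 8 in shVCAN, the lowest log2 fold change of that list (−2.71). The more abundant TIE1 fell less, from 84.7 ± 4.37 to 64.6 ± 7.45 CPM. The 2 that rose were FLT1 (1.43 ± 0.243 to 2.74 ± 0.143 CPM) and EGFL7 (41.2 ± 1.87 to 49.1 ± 5.54 CPM). VWF and CLDN5 had at most 8 and 6 counts in any tumour. Of 8 tested pericyte and smooth muscle markers out of 11, RGS5 rose (21.9 ± 1.34 to 30.5 ± 4.73 CPM), DES fell (25.7 ± 5.9 to 9.0 ± 2.32 CPM) and CSPG4 fell, with a median log2 fold change of 0.26. Their summed level was 91.9 to 105.4 CPM in shGFP and 81.4 to 92.8 CPM in shVCAN, and without DES it was 70.9 to 81.2 and 74.4 to 84.2 CPM, so the groups overlapped either way. MYH11 and COX4I2 were listed at 0 and PDGFRB had 2 to 14 counts. Of 6 tested fibroblast markers out of 8, 5 fell, with summed levels of 812.8 to 919.5 CPM in shGFP and 362.1 to 461.0 CPM in shVCAN; THY1 was listed at 0 and DCN had counts in 1 shGFP tumour only. Of 5 tested myeloid markers out of 11, S100A9 alone rose (71.9 ± 9.11 to 96.5 ± 7.39 CPM), with a median log2 fold change of −0.036. The summed level was 71.4 to 87.2 CPM in shGFP and 93.1 to 109.4 CPM in shVCAN, but without S100A9 it was 5.25 to 7.25 and 4.72 to 6.86 CPM. PTPRC had at most 3 counts in a tumour, and CD163 and TYROBP were listed at 0. The part of these cells, and of any mouse reads, in the levels of the Notch genes was not tested.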

How the data were processed

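Paired reads came from the RNA of 6 PC-3 tumours, 3 with shGFP and 3 with shVCAN, according to the labels. The deposited table holds raw counts per gene. Per the submitters' processing notes, the tools were Trim Galore, STAR and DESeq2 and the build hg38. Which program counted, on which annotation and strand, and whether mouse reads were removed, are steps not given in the sources used here. A further group in the growth protocol was not analysed here.

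Of 67071 rows, 45 second copies of pseudoautosomal genes (0 counts) were left out. Symbols came from a table of gene IDs (GENCODE 29 for some), and coordinates, exonic length, GC content (longest transcript) and shared exonic bases from GENCODE 29 (GRCh38, also called hg38). All 10 members matched 1 row each. The main test was edgeR's quasi-likelihood F test (edgeR 4.0.16, R 4.3.3; TMM scaling; filterByExpr, 16254 genes; group as the only term), with Benjamini-Hochberg adjustment over all tested genes and calls at an adjusted p under 0.05. The SE is the log2 fold change divided by the square root of F. CPM uses TMM library sizes. Libraries of a group differed by more than counting error (chi-square 3.22 to 5.9 per gene over genes with 50 or more counts), so each was counted as 1 sample.

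The genes and pathway lists were chosen with earlier results of these data known. Named genes are all members, then up to 4 called genes per role list, by smallest p, whose groups did not overlap and whose higher mean reached 5 CPM, plus RBPJ, ADAM10 and NCSTN; some items that the rule or lists name are not reported here. Scaling was varied (median-ratio factors, upper quartile, library size only), as were the filter (none, or at least 1 CPM in 3 tumours) and the test (DESeq2 1.42.0 Wald, voom in limma 3.58.1, a replicate block). Further alternatives were leaving out each tumour, an adjusted p under 0.01, a per-tumour offset for exonic length and GC (splines with 5 degrees of freedom on genes of at least 4 CPM) and, for shares, plain counts.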

Additional observations from a re-analysis of the deposited data

How the results depend on the processing

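The 4 rises and 2 falls among the members became 3 rises and 2 falls, by the loss of JAG2, with the Wald test of DESeq2, at an adjusted p under 0.01 and without 4 of the 6 tumours in turn. With the length and GC offset there were again 4 and 2, but HES1 took the place of NOTCH1. With library size only, 5228 genes were higher and 1890 lower, and 17 and 19 of the other pathway genes. Log2 fold changes with the other sign were those of HES1 with upper quartile factors (0.0039) and of HES1 and RBPJ with library size only (0.13 and 0.013). These settings rescale libraries by construction. With plain counts the NOTCH1 share difference was 0.24 and that of NOTCH3 3.89 percentage points. Leaving out 1 tumour gave −2.96 to 0.66 points for NOTCH1 and −0.84 to 0.063 for JAG1.

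With the replicate block, 3083 genes were higher and 3428 lower, and no member's call changed. Same-numbered tumours showed no shared deviation, with correlations of 0.018, 0.016 and −0.027 across genes. With 3 tumours per group these values cannot settle whether the numbers pair tumours, which the labels do not say. Depth limits HEYL, with 6 to 16 counts per tumour.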
